A study of Mus musculus with 8 samples.

Results

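Accessible chromatin was examined around 6 genes for homeodomain transcription factors, Pax6, Meis1, Meis2, Meis3, Pbx2 and Pbx3, in granule neuron progenitors (GNPs) of the mouse cerebellum. A peak was taken as a member when it lay in the body of one of these genes or within 50 kb on either side, by GENCODE M21 on mm10. By this rule the 6 windows, 1190 kb in all, held 128 of the 152984 peaks of the Chd7 WT list, 155 of the 174407 peaks of the mutant list and 92 of the 106974 peaks of the het list. All 8 ATAC-seq libraries came from cerebella of untreated mice at postnatal day 7 (strain C56Bl6/J in the labels, C57BL/6N in the study's methods), 3 labelled Chd7 wild type, 3 Chd7 mutant and 2 Chd7 het. In mice of these genotypes the study deleted a floxed Chd7 with Atoh1-Cre, on both alleles in the mutant and on one in the het, so that deletion was driven in cells that express or had expressed Atoh1, and its WT mice for expression assays carried floxed alleles (Chd7 f/f) without Cre. WT and mutant replicates were described as technical. Each of the 3 deposited lists was called on the pooled libraries of its genotype, so replicate error is unknown for every value here, and differences between genotypes could not be set against the spread between libraries.

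Pax6 carries a paired domain and a homeodomain, is expressed in the rhombic lip and in GNPs, and is required for granule cell development. Meis and Pbx proteins belong to the TALE class of homeodomain proteins and bind DNA together, often as partners of other homeodomain factors. Meis1 is known to activate Pax6 in the granule cell lineage, and Pax6 itself is controlled by a set of distant enhancers, many of them in introns of the neighbouring gene Elp4.

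The DNA under 6 of the peaks on which the results turn is given first, as the 300 bp centred on the summit, read on the plus strand of GRCm38.p6 (the mm10 sequence) and outside annotated exons. Capitals mark matches on either strand to TGACAG (the Meis core), TGATTGAC (the Pbx-Meis composite site, which overlaps the core in its last letters) or TGATTNAT (Pbx with another homeodomain partner). The first 3 are downstream of Pax6 in introns of Elp4, namely the strongest peak of the window (chr2:105722426-105722725) and the shared peaks with the highest (chr2:105715787-105716086) and lowest (chr2:105738960-105739259) mutant to WT ratio. The 4th is the tall peak upstream of Meis1 (chr11:19020342-19020641). The 5th is the strongest Meis2 peak found in the mutant list without a WT peak (chr2:116101250-116101549). The last is the peak in a Pbx3 intron with the lowest ratio of that gene (chr2:34260642-34260941).
Pax6 strongest: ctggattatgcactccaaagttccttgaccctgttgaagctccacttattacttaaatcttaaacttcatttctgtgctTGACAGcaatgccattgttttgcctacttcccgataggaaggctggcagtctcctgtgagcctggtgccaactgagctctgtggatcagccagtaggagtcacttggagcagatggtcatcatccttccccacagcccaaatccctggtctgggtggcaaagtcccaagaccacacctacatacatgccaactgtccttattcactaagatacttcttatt
Pax6 highest ratio: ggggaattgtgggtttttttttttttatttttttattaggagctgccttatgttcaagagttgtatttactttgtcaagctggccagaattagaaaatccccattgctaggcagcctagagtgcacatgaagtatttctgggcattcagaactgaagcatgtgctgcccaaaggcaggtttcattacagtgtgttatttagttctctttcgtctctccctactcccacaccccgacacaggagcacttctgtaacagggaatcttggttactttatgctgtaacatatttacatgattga
Pax6 lowest ratio: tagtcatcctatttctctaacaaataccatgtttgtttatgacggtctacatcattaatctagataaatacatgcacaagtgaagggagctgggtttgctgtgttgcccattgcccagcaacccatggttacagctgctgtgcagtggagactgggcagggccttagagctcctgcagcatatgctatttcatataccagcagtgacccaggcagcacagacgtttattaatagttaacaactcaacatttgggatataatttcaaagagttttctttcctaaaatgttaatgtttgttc
Meis1 upstream: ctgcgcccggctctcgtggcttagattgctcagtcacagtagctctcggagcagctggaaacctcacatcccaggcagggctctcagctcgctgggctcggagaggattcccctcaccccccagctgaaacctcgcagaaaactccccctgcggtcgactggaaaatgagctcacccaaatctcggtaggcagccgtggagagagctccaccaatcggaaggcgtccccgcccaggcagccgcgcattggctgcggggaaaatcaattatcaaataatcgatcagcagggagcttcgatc
Meis2 mutant list: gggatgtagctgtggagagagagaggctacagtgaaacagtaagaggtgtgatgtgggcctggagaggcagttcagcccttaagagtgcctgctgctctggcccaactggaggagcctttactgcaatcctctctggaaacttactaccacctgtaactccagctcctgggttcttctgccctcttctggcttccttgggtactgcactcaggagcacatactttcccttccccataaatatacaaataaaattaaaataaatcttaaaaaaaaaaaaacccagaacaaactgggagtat
Pbx3 lowest ratio: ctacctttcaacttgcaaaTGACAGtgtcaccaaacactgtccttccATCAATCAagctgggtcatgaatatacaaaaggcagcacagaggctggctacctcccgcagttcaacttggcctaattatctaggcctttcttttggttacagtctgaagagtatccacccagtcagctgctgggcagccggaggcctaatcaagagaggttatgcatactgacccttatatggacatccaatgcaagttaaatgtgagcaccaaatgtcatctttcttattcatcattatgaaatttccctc
The Pbx3 peak with the lowest ratio was the only one of the 6 with a match to TGATTNAT, and it also held 1 Meis core. Another Meis core lay under the strongest Pax6 peak. In the other 4 windows these letters were not found. Repeat-masked sequence made up 47.3% of the Meis2 window, and its summit lay in a repeat. Such sequence made up 13.7% of the Pax6 window with the highest ratio, and the remaining windows held none.

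Heights are given as pileup, the number of extended tags at the summit, or as pileup per 1000000 tags. The lists rested on 50394313 tags in WT, 51030229 in mutant and 30923002 in het. WT and mutant tags were extended to 90 and 88 bp and het tags to 200 bp, so het heights were not set against the others, and het peaks are described by presence, by fold enrichment over local background, and by rank, which is the share in percent of their own list that had an equal or smaller -log10 q. Tag size also differed, at 107 bp in WT and het against 76 bp in mutant. As a check of cell identity, 5 of 5 GNP genes (Atoh1, Barhl1, Zic1, Gli1 and Neurod1) had a promoter peak in every list, at WT ranks of 75.3 to 91.9. Of 8 matched markers of other cerebellar cells, Gfap, Aqp4 and Cldn5 had one in every list, at WT ranks of 44.5 to 57.5, and Pcp2, Mog, Mobp, Cx3cr1 and C1qa had none. Between WT and mutant, ranks of the other-cell promoters were 44.5 and 79.1 at Aqp4, 57.5 and 59.4 at Gfap, and 54.9 and 50.5 at Cldn5, and those of the GNP genes ran from 63.6 to 93.8 in mutant, with Barhl1 at 75.3 in WT and 63.6 in mutant. Whether cell composition had a part in the values below was not tested. The window of the targeted gene Chd7 held 41 WT, 30 het and 49 mutant peaks, and its shared peaks had a median log2 height ratio of 0.05, so the lists do not show the deletion at that scale.

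**Figure D1:**
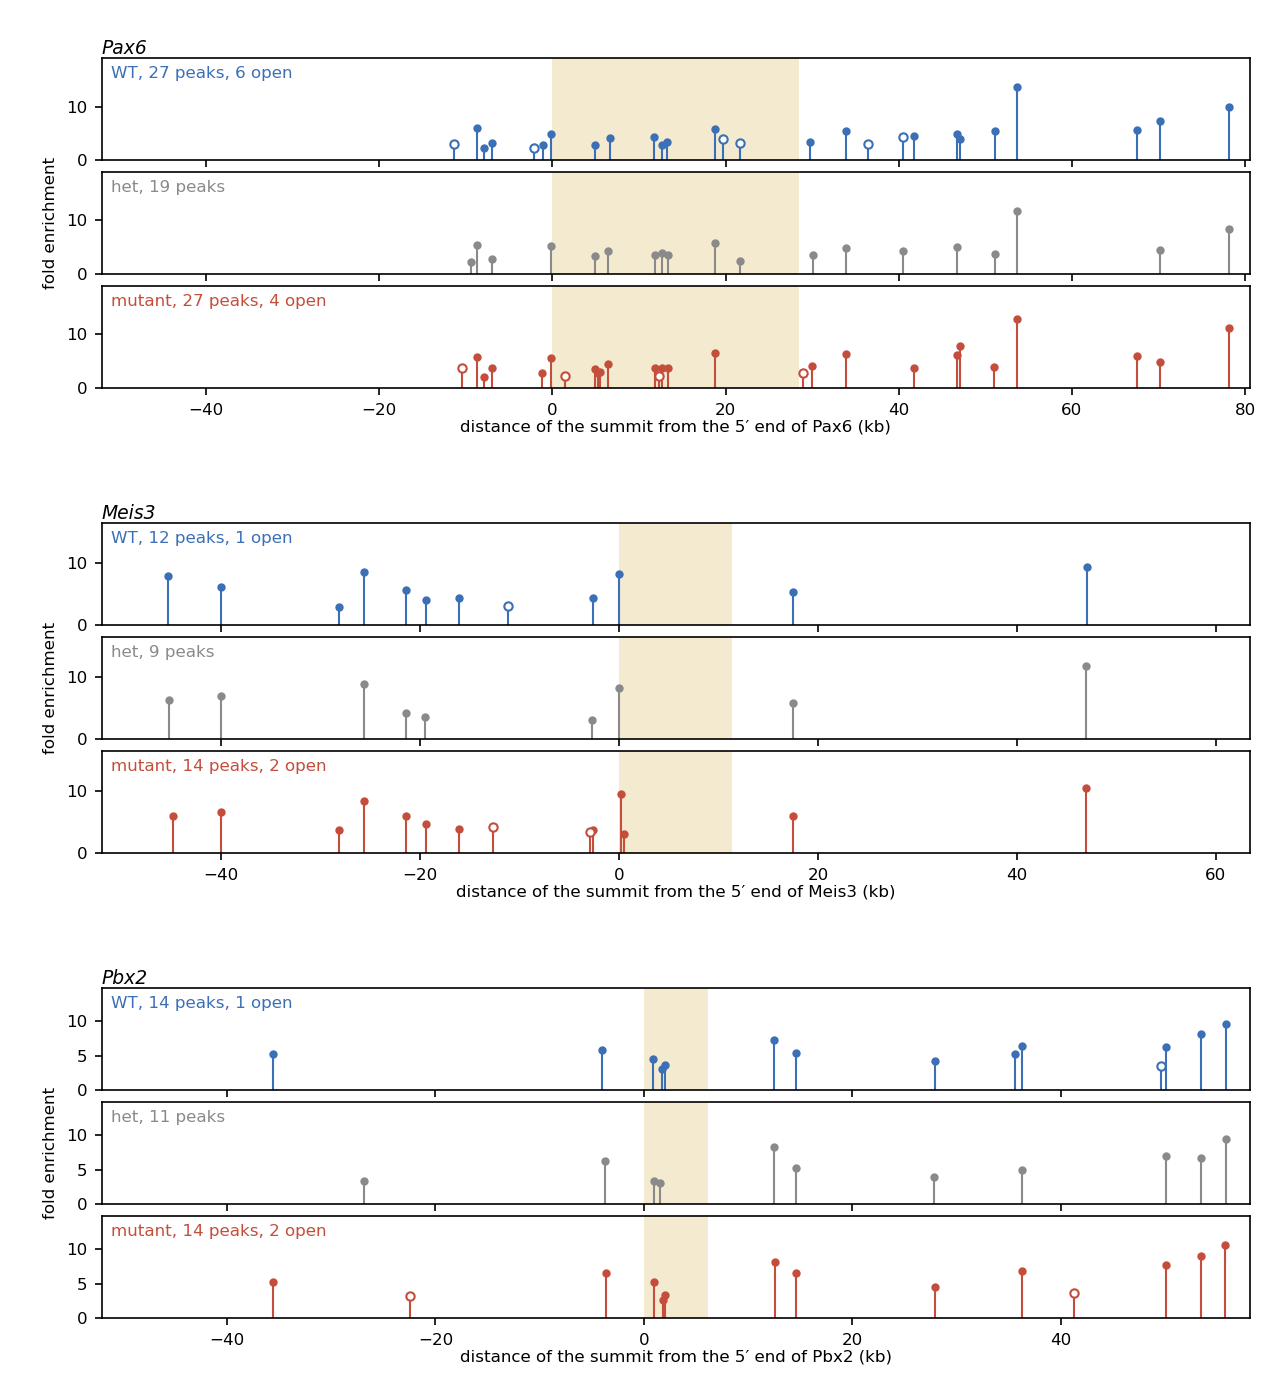
Peaks around Pax6, Meis3 and Pbx2 in the WT, het and mutant lists. Stems stand at the summit's distance from the 5′ end of the gene (kb, positive downstream) and rise to the fold enrichment; the gene body is shaded, and open circles mark WT peaks without a mutant peak and mutant peaks without a WT peak. The Pax6 stems fill the gene body and the downstream side, and no list has a peak over the first 38.6 kb of the window.

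Pax6 (ENSMUSG00000027168.21, chromosome 2, 105668900 to 105697364, plus strand) lay in the window densest in peaks, with 27 WT, 19 het and 27 mutant peaks in 128 kb. Its peaks covered the promoter, the gene body and the downstream Elp4 introns, and the 38.6 kb farthest upstream held none in any list. The promoter peak at the 5′ start site (105668294 to 105668926) had a pileup of 52 in WT and 63 in mutant, log2 0.26 with a counting interval of 0.816 to 1.76 for the fold, and it ranked 79.2 in WT, 82 in het and 87.2 in the mutant list. Further start sites inside the gene carried a run of 5 shared peaks, 5.0 to 13.2 kb downstream of the 5′ end, and 4 of the 5 were higher in the mutant list, by log2 0.14 to 0.43, while that at 11.8 kb was lower, at log2 -0.13. An intron peak 18.8 kb into the gene went from 51 to 59. None of these differences was larger than counting error.

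Upstream, the tallest peak of the Pax6 window lay in an exon of Paupar, a long non-coding RNA gene next to Pax6 (105660022 to 105660835), with a pileup of 64 in both lists. On the other side, the strongest peak by q value lay 53.7 kb downstream of the 5′ end, in an Elp4 intron (105722341 to 105722715). It reached a pileup of 61 in WT and 53 in mutant, and a fold enrichment of 13.6 in WT, 11.7 in het and 12.8 in mutant, with ranks of 97, 91 and 95.1. It was therefore strong in all 3 lists, and its mutant to WT ratio (log2 -0.22, fold interval 0.582 to 1.26) did not leave counting error.

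The shared peak with the highest ratio of all 6 windows was a smaller one in the same stretch of Elp4 introns, 47.0 kb downstream (105715884 to 105716009). Its pileup was 13 in WT and 27 in mutant, log2 1.04, with a fold interval of 1.02 to 4.33, and 98.8% of all shared peaks in the genome had a ratio at or below it. Its rank went from 29.3 to 77. No het peak overlapped it, and the nearest het peak was 152 bp away. A peak 51.1 kb downstream went the other way, from 26 to 19 (log2 -0.47), and one at 70.2 kb (105739038 to 105739172) from 19 to 12 (log2 -0.68, fold interval 0.276 to 1.35). The latter had a fold enrichment of 7.33 in WT, 4.56 in het and 4.88 in mutant. Log2 ratios in this stretch of Elp4 introns thus had both signs, and only the fold interval of the 47.0 kb peak left out 1. The median log2 ratio of the 21 shared Pax6 peaks was 0.08, from -0.68 to 1.04.

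Of the 27 WT peaks at Pax6, 6 had no mutant peak (22.2%, Wilson 95% interval 10.6 to 40.8%), where 22.8% of all WT peaks had none. The strongest of them (105688539 to 105688647, intron, pileup 33, -log10 q 9.55) lay 505 bp from the nearest mutant peak and had no het peak. In the mutant list 4 of 27 had no WT peak (14.8%, 5.92 to 32.5%), against 30.7% of the whole list. One of them, in an exon of Paupar 10.5 kb upstream of the Pax6 5′ end (105658329 to 105658516), had a pileup of 41 and a -log10 q of 11.1, no het peak, and a summit in a repeat. A weaker WT peak with no mutant partner lay 728 bp away, with a pileup of 29.

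**Figure D2:**
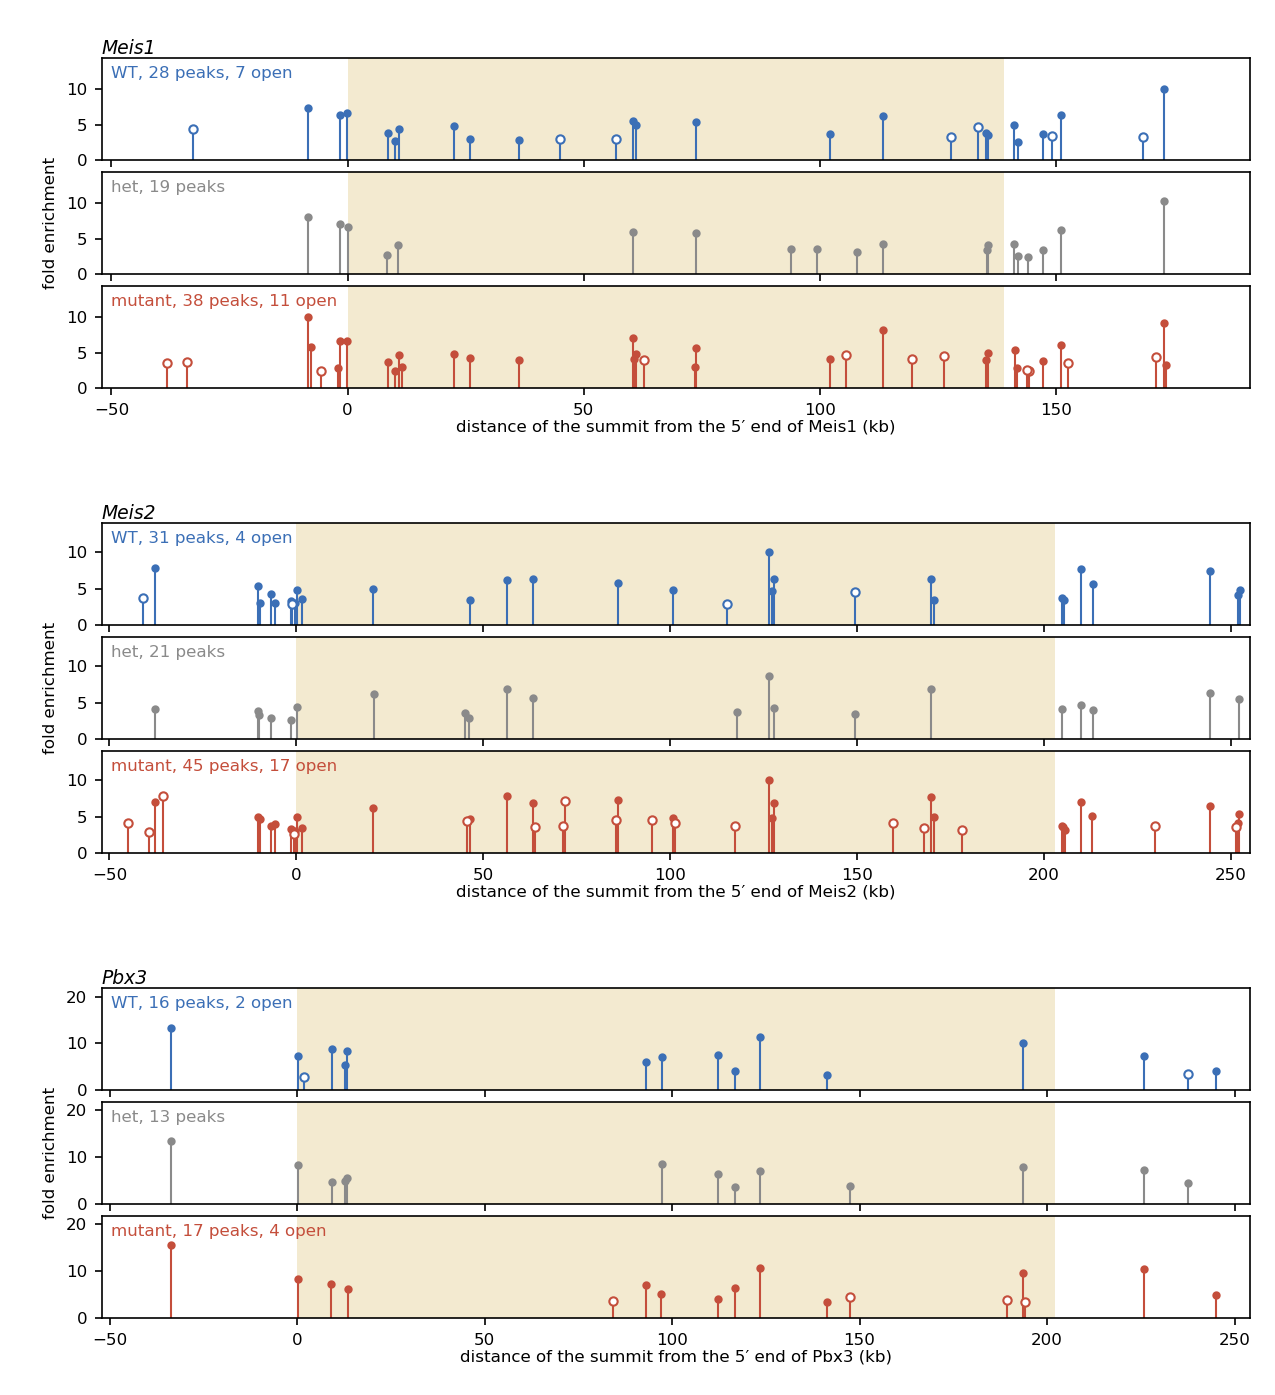
Peaks around Meis1, Meis2 and Pbx3 in the WT, het and mutant lists, drawn by distance from the 5′ end (kb) and fold enrichment, with the gene body shaded and open circles for WT and mutant peaks without a partner in the other of these lists. Meis2 has 17 open mutant stems against 4 open WT stems, and Pbx3 has a stretch of 70.7 kb of its body without any peak.

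Meis1 (ENSMUSG00000020160.18, chromosome 11, 18879817 to 19018985, minus strand) held 28 WT, 19 het and 38 mutant peaks. Its 2 tallest peaks lay at the promoter and just upstream of it. The promoter peak (19018629 to 19019165) had a pileup of 75 in WT and 82 in mutant and ranked 92.4, 91.7 and 93.8 in WT, het and mutant. The peak 1.51 kb upstream (19020350 to 19021188) had 71 and 81, and one 8.5 kb upstream (19026579 to 19027669) had 39 and 54. Ratios of the 3 were log2 0.11, 0.17 and 0.45, all higher in the mutant list, and the widest departure had a fold interval of 0.889 to 2.12. Inside the gene, an intron peak 60.4 kb from the 5′ end (18958194 to 18958647) went from 23 to 35 (log2 0.59, interval 0.863 to 2.66), with fold enrichments of 5.49 in WT, 5.94 in het and 7.12 in mutant. Farthest away, a shared peak 172.9 kb from the 5′ end and past the 3′ end of the gene had a pileup of 42 in WT and 33 in mutant (log2 -0.37), while its fold enrichment was 10.1 in WT, 10.3 in het and 9.23 in mutant. Over the 21 shared Meis1 peaks the median log2 ratio was 0.14 (interval over peaks -0.02 to 0.24), and 15 of 21 were above the median of all shared peaks. On fold enrichment the Meis1 median was log2 0.08, equal to the 0.08 of all shared peaks, so no direction is given for this gene.

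At Meis1, 7 of 28 WT peaks had no mutant peak (25.0%, 12.7 to 43.4%) and 11 of 38 mutant peaks had no WT peak (28.9%, 17.0 to 44.8%), both close to the whole-list shares. All 18 were weak, at a -log10 q under 10. The strongest WT peak among them (18885500 to 18885631, exon) had a pileup of 22 and a -log10 q of 8.15. Of the mutant ones 6 lay in introns, and pileups of the 11 ran from 9 to 31.

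Meis2 (ENSMUSG00000027210.20, chromosome 2, 115863064 to 116065839, minus strand) had the largest excess of mutant peaks, 45 against 31 in WT and 21 in het. Its promoter peak (116065655 to 116065860) was of similar height in WT and mutant, 39 against 44, and ranked 72.8 in WT, 63.8 in het and 76.8 in mutant. Its 2 tallest distal peaks had ratios near 1 as well. That in the intron 126.4 kb from the 5′ end (115939043 to 115939627) had a pileup of 44 in WT and 45 in mutant, and that 209.8 kb from the 5′ end, past the 3′ end (115855930 to 115856100), had 49 and 46. For these peaks fold enrichment in WT, het and mutant was 9.98, 8.67 and 9.96 for the first, and 7.63, 4.71 and 7 for the second. The 27 shared Meis2 peaks had a median log2 ratio of 0.08, from -0.31 to 0.60, where the top value was a weak peak upstream of the gene with a pileup of 13 in WT and 20 in mutant.

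Of the 6 genes Meis2 had the highest share of mutant peaks without a partner, with an interval that overlaps those of the others. Of 45 mutant peaks 17 had no WT peak (37.8%, 25.1 to 52.4%), and 4 of 31 WT peaks had no mutant peak (12.9%, 5.13 to 28.9%). In the whole lists these shares were 30.7% and 22.8%. Weak peaks lack a partner more often, and when each mutant peak was given the genome-wide share of its own decile of q value, 15.5 of the 45 would be without a WT peak. The observed 17 was near this value, which rests on the mutant q values themselves. Why these peaks had no WT peak was not tested. Of the 17, 15 had a -log10 q under 10, with pileups of 7 to 22. The other two were stronger. One in an intron 71.9 kb from the 5′ end (115993746 to 115994247) reached a pileup of 20, a -log10 q of 12.0 and 7.13-fold enrichment, and the nearest WT peak was 8181 bp away. The other lay 35.6 kb upstream in intergenic sequence (116101325 to 116101477), where pileup was 20, -log10 q 13.1 and enrichment 7.78-fold, and the nearest WT peak was 2048 bp away. Neither had a het peak. The summit of the upstream peak was in a repeat, shown above, and that of the intron peak was not.

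Meis3 (ENSMUSG00000041420.18, chromosome 7, 16175090 to 16186504, plus strand) is a short gene, and 9 of the 12 WT peaks of its window lay upstream, most of them over neighbouring genes such as Slc8a2. The lists held 12 WT, 9 het and 14 mutant peaks. The promoter peak (16174802 to 16175810) had a pileup of 47 in WT and 50 in mutant and ranked 87.8, 85 and 91. An intron peak of Slc8a2 25.7 kb upstream of Meis3 (16149068 to 16149626) went from 45 to 35 (log2 -0.38, interval 0.479 to 1.22), but its fold enrichment was level, 8.47 in WT, 8.82 in het and 8.39 in mutant. Over the 11 shared peaks the median log2 height ratio was -0.02, and 10 of 11 lay below the median of all shared peaks. On fold enrichment the direction of the Meis3 median turned, to log2 0.08, so no direction is given for this gene. Without a partner were 1 of 12 WT peaks and 2 of 14 mutant peaks (8.33% and 14.3%), against 22.8% and 30.7% of the whole lists.

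Pbx2 (ENSMUSG00000034673.14, chromosome 17, 34591266 to 34597400, plus strand) lies among closely packed genes, and 7 of its 14 WT peaks were at start sites of other genes. The tallest peak of the window, with a pileup of 77 in WT and 83 in mutant, belonged to the start of Rnf5. The Pbx2 promoter peak itself (34591952 to 34592426) had 37 and 38 and ranked 69.3 in WT, 43.2 in het and 74.5 in mutant. A pair of smaller peaks at Pbx2 start sites inside the gene went from 18 to 13 and from 21 to 17 (log2 -0.49 and -0.32), within counting error. The 13 shared peaks had a median log2 ratio of 0.09. No partner was found for 1 of 14 WT and 2 of 14 mutant peaks (7.14% and 14.3%), against 22.8% and 30.7% of the whole lists.

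Pbx3 (ENSMUSG00000038718.15, chromosome 2, 34171457 to 34373142, minus strand) had the sparsest window, with 16 WT, 13 het and 17 mutant peaks in 302 kb. The promoter peak (34371736 to 34373394) was 1659 bp wide in WT, with a pileup of 57 there and 64 in mutant, and ranked 89.5 in WT, 91.6 in het and 93.2 in mutant. Intron peaks of this gene had ratios of both signs. The one 112.3 kb from the 5′ end (34260632 to 34261052) had a pileup of 19 in WT and 10 in mutant, log2 -0.94, and 0.527% of all shared peaks had a ratio at or below it. Its fold interval was 0.216 to 1.17, so counting error alone does not set it apart from no change. Enrichment over local background was 7.46 in WT, 6.38 in het and 4.13 in mutant. Another 4 intron peaks, at 9.2, 13.5, 97.3 and 123.4 kb, had log2 ratios of -0.16 to -0.49, each within counting error. Of the 10 shared intron peaks 7 were below 0 and 3 above, from log2 -0.94 to 0.66. Highest was the peak at 116.8 kb, with a pileup of 10 in WT and 16 in mutant (log2 0.66, fold interval 0.674 to 3.89). The others above 0 were at 12.9 kb (pileup 14 in WT and 17 in mutant, log2 0.26) and 93.2 kb (15 and 18, log2 0.24). The median over the 14 shared peaks was log2 0.07, with 7 above and 7 below 0. At Pbx3 2 of 16 WT peaks had no mutant peak (12.5%), of which the stronger was a shoulder 342 bp from the mutant promoter peak. In the mutant list 4 of 17 had no WT peak (23.5%), all with a -log10 q under 5. The whole-list shares were 22.8% and 30.7%.

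**Figure D3:**
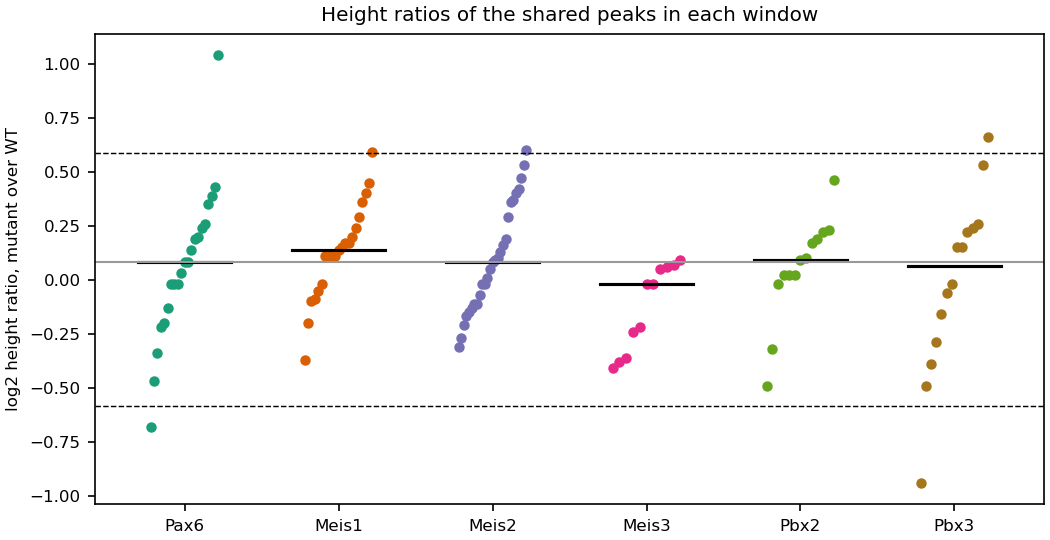
Log2 height ratio, mutant over WT, of each shared peak by gene, sorted within a gene. Black bars are medians, the grey line is the median of all 118098 shared peaks (0.08) and dashed lines are 1.5-fold changes; 2 points lie below the lower line and 4 above the upper line.

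**Figure D4:**
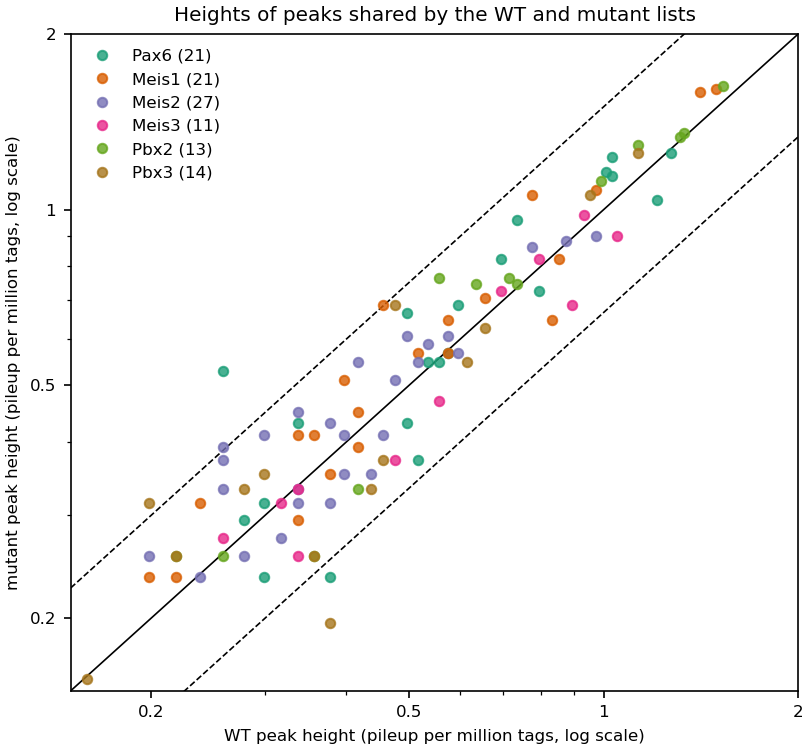
Height of the 107 shared peaks in the WT list (x) and the strongest overlapping peak of the mutant list (y), in pileup per 1000000 tags on log axes, coloured by gene. Points follow the line of equality, dashed lines mark 1.5-fold differences, and all peaks above 1 on the x axis lie between them.

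Over the 6 windows 107 WT peaks were shared with the mutant list. Their median log2 ratio was 0.08 (interval of the median over peaks -0.02 to 0.13), which equals the 0.08 of all 118098 shared peaks, and 64 of 107 were above 0, where 57.6% of all shared peaks were. At least 1.5-fold lower in mutant were 2 (Pax6 and Pbx3), where 3.61% of all shared peaks were. At least 1.5-fold higher were 4, 1 each at Pax6, Meis1, Meis2 and Pbx3, where 8.37% of all shared peaks were. These 6 peaks had WT pileups of 10 to 23. Only 1 of the 107 fold intervals left out 1, that of the Pax6 peak 47.0 kb downstream, or 0.935%, beside 1.43% above 1 and 0.514% below 1 among all shared peaks. The tallest own promoter peak was higher in mutant in 6 of 6 genes, by log2 0.02 to 0.26, on heights that were not centred. Of these ratios 4 exceeded the genome median of 0.08, and 57.6% of all shared peaks were above 0. A share for promoter peaks alone is not given here. Further own start-site peaks went both ways, most of those inside Pax6 higher and the pair inside Pbx2 lower. On fold enrichment the Meis1 promoter was level, 6.68 in WT and 6.64 in mutant.

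**Figure D5:**
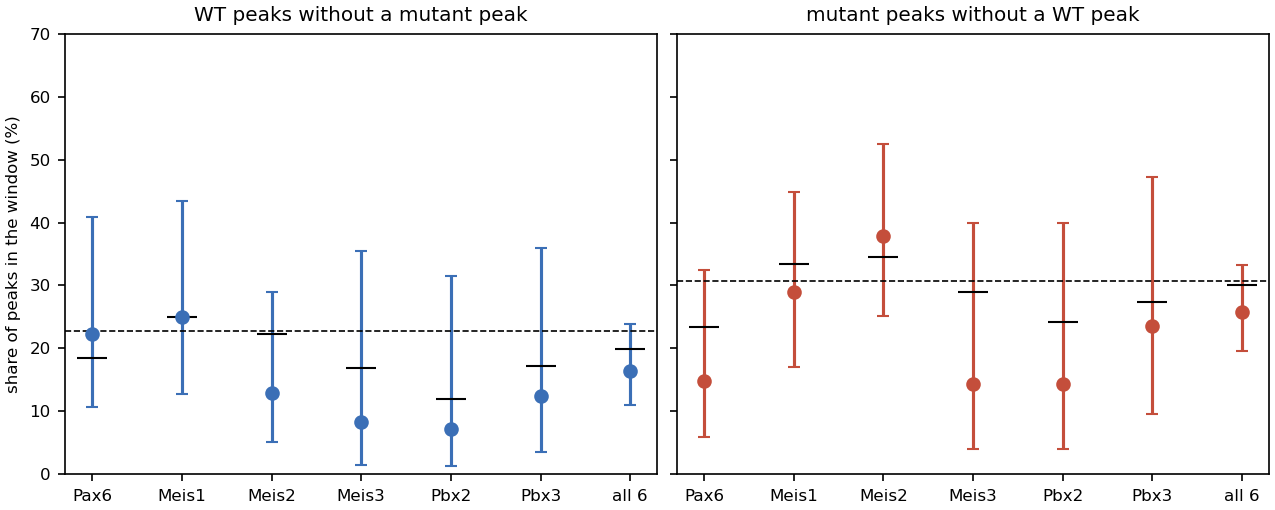
Percentage of WT peaks that no mutant peak overlaps (left) and of mutant peaks that no WT peak overlaps (right) for each gene and for all 6, with Wilson 95% intervals over peaks. Black dashes are the shares given by the genome-wide share of each peak's q value decile, and dashed lines are the whole-list shares (22.8% and 30.7%); the interval of every single gene spans its own dash, and Meis2 has the highest mutant share.

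Without a mutant peak were 21 of 128 WT peaks (16.4%, 11.0 to 23.8%), and deciles of q value would give 25.4. In the mutant list 40 of 155 had no WT peak (25.8%, 19.6 to 33.2%), against 46.6 from deciles. Both counts were a little under these values, and the intervals over peaks span them. Unshared members had low scores: the median -log10 q was 4.02 for WT and 3.77 for mutant, and 9.36 and 9.29 among shared members. At a -log10 q of 10 or more, 0 of 51 WT peaks lacked a mutant peak, and 3 of 56 mutant peaks lacked a WT peak (5.36%), namely the 2 Meis2 peaks and the Paupar exon peak at Pax6. In the whole lists these shares were 0.456% and 1.21%. In 2 of these 3 the summit lay in a repeat, where 7.50% of the 40 mutant peaks without a WT peak and 4.35% of the 115 with one had such a summit. In the whole mutant list the shares were 15.7% and 7.45%. Whether repeats or the shorter tags of the mutant list had a part in these peaks was not tested.

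The het list had a peak over 86 of 128 WT peaks (67.2%, 58.7 to 74.7%), where 63.1% of all WT peaks had one, and 92 of 155 mutant peaks (59.4%, 51.5 to 66.8%), where 58.7% of the mutant list had one. By gene the WT share ran from 53.6% at Meis1 to 85.7% at Pbx2, and the mutant share from 44.4% at Meis2 to 71.4% at Meis3 and Pbx2, with intervals that overlap. A het peak lay over 5 of the 21 WT peaks that lacked a mutant peak, and over 5 of the 40 mutant peaks that lacked a WT peak (23.8%, 10.6 to 45.1%, and 12.5%, 5.46 to 26.1%). In the whole lists these shares were 13.2% and 15.2%. For 81 WT peaks with both partners, het fold enrichment lay between WT and mutant in 25 (30.9%), against 30.0% of such peaks in the genome. The median log2 ratio of het to WT fold enrichment was -0.07, and -0.09 over the genome. Het differed from the other lists in aligner, shift, extension, number of tags and number of pooled libraries as well as in genotype. The parts of these cannot be told apart.

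When peaks of all lists within 300 bp were joined, the 6 windows gave 146 regions. Of these, 72 were in all 3 lists (49.3%, against 45.7% of all regions), 18 in WT and mutant, 15 in WT alone (10.3%, against 13.3%) and 28 in mutant alone (19.2%, against 20.1%). Meis2 held 11 of the 28, among its 36 regions, and Meis1 held 9, among its 38 regions, the largest region totals of the 6 windows. Regions in WT and het without mutant numbered 4 (2.74%, against 1.66% of all regions), of which 2 were at Pax6.

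Letters of the binding sites of these factors were counted under all peaks of the windows. The Meis core TGACAG occurred in the 300 bp at the summit of 38 of 128 WT peaks (29.7%, 22.5 to 38.1%), where 27.1% of all WT peaks had it, and by gene in 11 of 27 at Pax6, 8 of 16 at Pbx3, 7 of 31 at Meis2, 5 of 28 at Meis1, 4 of 14 at Pbx2 and 3 of 12 at Meis3. The composite TGATTGAC was found under 1 WT peak, at Meis2 (0.781%, against 0.755% of the list), and TGATTNAT under 3, of which 2 were at Pbx3 and 1 at Meis1 (2.34% against 3.63%). The E-box CAGNTG, bound by bHLH factors such as Atoh1, was under 72 (56.2%, 47.6 to 64.5%), where 68.8% of all WT peaks had it. Away from start sites 61.7% of member peaks (51.6 to 70.9%) and 71.6% of all WT peaks had an E-box. At start sites the shares were 41.2% (26.4 to 57.8%, which spans the share of the list) and 54.1%. Median GC content at the summits was 51.5% in members and 50% in the list. RefSeq promoters of Pax6, Meis1, Meis2, Meis3 and Pbx2 (250 bases before to 50 after the start, 2 for Pax6 and 1 for each of the others) held a Meis core in 1, at Pax6, and an E-box in 1, at Pbx2, where 19.2% and 51.4% of 32851 promoters held them. A match of letters is a description and does not show binding.

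As related genes, the windows of 5 other Pax genes (Pax2, Pax3, Pax5, Pax7 and Pax8) held 73 WT and 95 mutant peaks. Of these, 13 WT peaks (17.8%, 10.7 to 28.1%) and 33 mutant peaks (34.7%, 25.9 to 44.7%) had no partner. The median log2 ratio of their 60 shared peaks was 0.02, with 0 at least 1.5-fold lower and 8 higher. Windows of 4 other TALE genes (Pknox1, Pknox2, Tgif1 and Tgif2) held 80 and 90, with 16 (20%, 12.7 to 30%) and 29 (32.2%, 23.5 to 42.4%) without a partner. Their 64 shared peaks had a median of 0.14, with 1 at least 1.5-fold lower and 8 higher. The intervals of these shares overlap those of the 6 genes.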

How the data were processed

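ATAC-seq libraries of P7 GNPs (3 WT, 3 mutant, 2 het) were represented by 3 deposited MACS2 narrow peak lists, 1 per genotype, called by the authors on pooled libraries with no control and a q-value limit of 0.05. Per the file headers the signal is the unscaled pileup at the summit, fold enrichment is the deposited ratio of pileup to local background given by the authors' peak caller, with a pseudocount of 1 on each, and the deposited −log10 q values depend on depth. The submitters' processing notes name Trim Galore 0.4.1, STAR 2.5.0b, Bowtie 1.0.0, Picard 1.139 and MACS2 2.1.0.20150731. Headers point to STAR alignments for WT and mutant and to bowtie with a shift of -100 bp for het. No value column lacked a group (0 columns).

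Genes were protein-coding and lncRNA genes of GENCODE M21. The 6 genes and all lists were chosen with earlier results of these data known. Peaks were shared at 1 bp of overlap, with the strongest mutant partner taken, and the size rule was 1.5-fold on pileup per 1000000 tags. A summit was placed at a start site within 1 kb, otherwise in an exon, an intron or intergenic sequence. Named peaks were, per gene, the tallest within 1 kb of its own start site, the 2 tallest WT peaks farther than 1 kb from any start site, the lowest and highest ratio among shared peaks that reached a −log10 q of 5 in WT or mutant, and the strongest without a partner in each direction; others named were chosen after their values were seen. Not all peaks under this rule are reported here. Shares have Wilson 95% intervals, and fold intervals are exact binomial ones on 2 pileups. Intervals cover counting error only. Fold intervals take tags as independent molecules, which they are not, so they can be too narrow. No test was run. The marker Ca8 was not matched in the annotation. Peak ends stayed within the chromosomes of GRCm38.p6. Overlap code was checked on simulated peaks. Python 3.11.15, numpy 2.4.6, pandas 2.3.3, scipy 1.17.1 and matplotlib 3.10.9 were used.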

Additional observations from a re-analysis of the deposited data

How the results depend on the processing

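No paired analysis was possible because each genotype had 1 list, made from pooled libraries, and for the same reason no replicate could be left out. The median log2 ratio stayed inside its interval over peaks (-0.02 to 0.13) under all 6 alternatives. Of these, centring only subtracts the genome median of 0.08 from each ratio, so its value of 0.00 was fixed in advance. Under 50% reciprocal overlap, WT peaks without a mutant peak rose to 29.7%, mutant peaks without a WT peak to 41.9%, mutant peaks with a het peak fell to 44.5%, and peaks at least 1.5-fold lower numbered 1. With a −log10 q of 5 or more asked of the peaks counted alone, 6.74% of WT peaks had no mutant peak. Of mutant peaks 6.93% had no WT peak. In the whole lists these shares were 5.78% and 11.2%. Het peaks then lay over 82% of WT and 77.2% of mutant peaks. When a −log10 q of 5 or more was asked of both lists, WT and mutant peaks with het were 75.3% and 70.3%. By that rule 1 shared peak was lower and 1 higher. Whole-list shares under the other settings are not given here. Counting het peaks within 300 bp gave 67.1% of mutant peaks. Gene bodies plus 5 kb left 1 lower and 2 higher peaks, and centring on the genome median left 2 higher. The cause was not tested. Pileups of 10 to 30 at most distal peaks limit what can be seen. A change under 1.5-fold in 1 such peak is within counting error, and a larger one can be too. The Pbx3 peak with the lowest ratio was 1.92-fold lower in mutant, with a mutant over WT fold interval of 0.216 to 1.17.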
